A study of Mus musculus with 9 samples.

Results

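The genes described here move iron across membranes, store it or control its handling. They were taken by symbol from the deposited count table, which lists 13593 genes, and all 10 listed genes were found there: Slc40a1, Flvcr1, Tfrc, Slc11a1, Slc11a2, Fth1, Ftl1, Ncoa4, Ireb2 and Blvrb. Messenger RNA was sequenced from bone marrow-derived macrophages, that is, marrow cells turned into macrophages by culture for 7 days in medium with 15% L929 supernatant, which carries the growth factors these fibroblasts release. The marrow came from 6-week-old wild-type C57BL/6 mice. One group received CCL26 and a further group CX3CL1, both being chemokines that bind CX3CR1 by the series title, and the control group received bovine serum albumin (BSA). Each protein was given at 4 nM for 4 h, and each of the 3 groups had 3 libraries. No source used here says whether the 3 libraries of a group came from separate mice or cultures, so p-values measure the spread between libraries, which may be technical. In bulk RNA, fewer cells of a type and less RNA per cell cannot be told apart.

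Macrophages recycle the iron of old red cells and hold or release it according to need. Iron enters through the transferrin receptor (Tfrc) and leaves endosomes and lysosomes through divalent metal transporters (Slc11a2 and, in phagosomes, Slc11a1). It is stored in ferritin, a shell of heavy and light chains (Fth1 and Ftl1), is released again when the receptor Ncoa4 brings ferritin to lysosomes, and leaves the cell through ferroportin (Slc40a1). Iron regulatory proteins, of which Ireb2 encodes one, bind a hairpin called the iron-responsive element: in a 5′ UTR it lets them block translation, and in the Tfrc 3′ UTR it lets them protect the mRNA from decay. Flvcr1 is a haem exporter, and Blvrb is a biliverdin reductase, which acts on a product of haem breakdown.

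The elements of these genes are shown because they tie exporter, storage and receptor to the same regulators. Every complete coding transcript of these 10 genes (GENCODE M21, GRCm38) was searched on the transcript strand. The pattern was a C, 5 bases, the loop CAGTGN with a last base other than G, and 5 bases that pair with the first 5. G-T pairs were allowed. Each sequence is 25 bases long, 5′ to 3′ on the transcript strand, with the loop in capitals. The 5′ UTR elements lie at chr1:45925467-45925491 on the minus strand (Slc40a1), chr19:9982734-9982758 on the plus strand (Fth1) and chr7:45459781-45459805 on the minus strand (Ftl1).
Slc40a1: acttcagctaCAGTGTtagctaagt
Fth1: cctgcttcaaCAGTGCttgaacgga
Ftl1: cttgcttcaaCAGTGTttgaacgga
The 4 matches found in the Tfrc 3′ UTR lie on the plus strand, at chr16:32631221-32631245 (a), chr16:32631600-32631624 (b), chr16:32631665-32631689 (c) and chr16:32631712-32631736 (d). Elements of another form, in Tfrc as well, would be missed by this search.
Tfrc element a: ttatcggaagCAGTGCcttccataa
Tfrc element b: ttatcgggagCAGTGTcttccataa
Tfrc element c: atatcggagaCAGTGAtctccatat
Tfrc element d: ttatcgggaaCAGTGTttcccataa
For the shares that follow, only the longest coding transcript of each gene was searched. A match stood in the 5′ UTR of 11 of 11937 genes (0.0922%) and in the 3′ UTR of 63 (0.528%). Tfrc alone had more than 1 match in its 3′ UTR. For the other 6 genes these letters were not found in any transcript searched, which says nothing about other forms of the element or incomplete transcripts. The counts are per gene, not per isoform.

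On GRCm38, Slc40a1 lies at chr1:45908068-45926523 (minus strand), Flvcr1 at chr1:191005847-191026158 (minus) and Slc11a1 at chr1:74375195-74386062 (plus). Tfrc lies at chr16:32608920-32632794 (plus), Slc11a2 at chr15:100387898-100425072 (minus), Fth1 at chr19:9980598-9985098 (plus) and Ftl1 at chr7:45457944-45459884 (minus). Ncoa4 lies at chr14:32159865-32179855 (plus), Ireb2 at chr9:54863789-54912530 (plus) and Blvrb at chr7:27447978-27466144 (plus). Values are counts over whole genes.

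Depth ran from 16923982 to 23198324 counts per library. CX3CL1 replicate 1, coded B1 in the labels, stood apart: 1193 genes of the table had no count there, against 80 to 170 in the other 8 libraries. Its values also went with transcript length. In log2, its level over the mean of the other 8 libraries had a median of 0.84 in the 25% of genes with the shortest transcripts and −0.95 in the 25% with the longest. Across 11586 genes, Spearman's rho of that ratio with length was −0.641, and from −0.143 to 0.181 for the same measure in each other library; genes of one library are not independent replicates. Tests are therefore given with all 9 libraries and with 8, without B1. All 10 genes passed the filter on low counts in both fits.

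**Figure D1:**
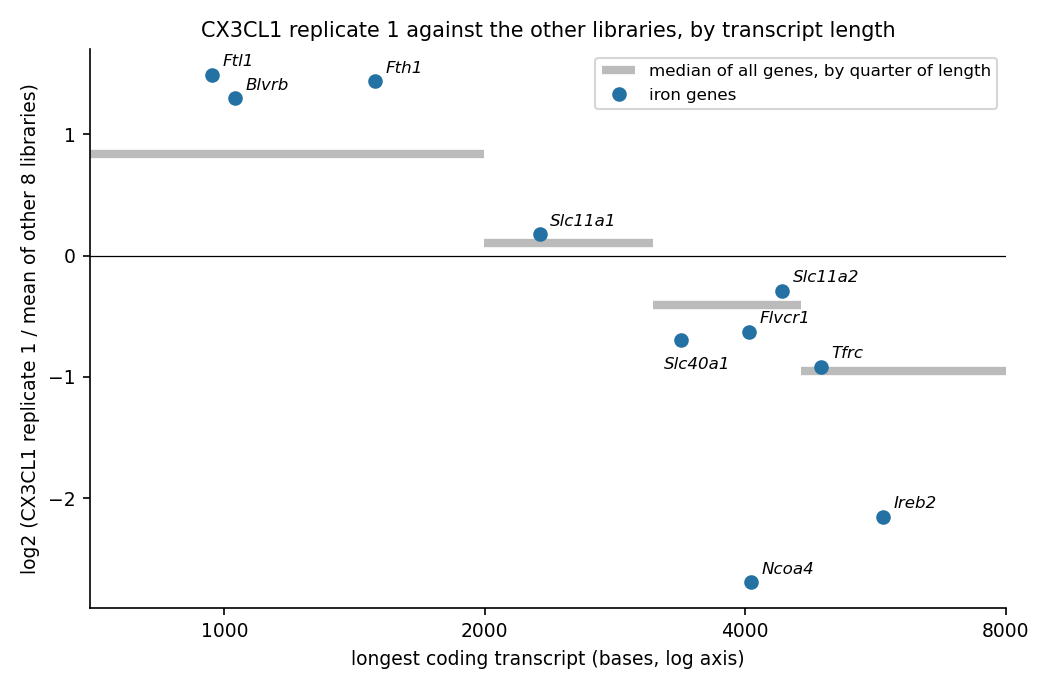
Level of each iron gene in CX3CL1 replicate 1 over its mean in the other 8 libraries (log2, vertical axis) against the length of its longest coding transcript (bases, log axis). Grey bars are the medians of all genes in 4 equal classes of length, drawn only as far as the axis reaches; the short Ftl1, Fth1 and Blvrb sit highest and Ncoa4 and Ireb2 lowest.

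The iron genes lay on both sides of that pattern. In B1, Ftl1 was at 2.81 times, Fth1 at 2.71 times and Blvrb at 2.46 times its mean in the other 8 libraries, and these 3 have the shortest transcripts of the set (968, 1494 and 1028 bases). Ncoa4 was at 0.154 times and Ireb2 at 0.225 times. For all 10 genes, B1 lay outside the range of the other 8 libraries, on the side to which the median of the gene's length class had moved. Slc11a1, of 2315 bases, was closest to the rest at 1.13 times, and Slc11a2 next at 0.818 times.

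Levels of different genes are compared per length, as RPKM, which divides a count by the library size and by the exon length of the gene. With CCL26, Fth1 led with 7186 ± 180.4 RPKM (SD, n = 3), followed by Ftl1 with 789 ± 25.9. Blvrb with 199 ± 13.1 and Slc11a1 with 192 ± 1.82 overlapped. Slc11a2 with 70.7 ± 3.35 stood above Tfrc with 52.4 ± 1.80 and Ncoa4 with 39.9 ± 0.970, and Slc40a1 (21.3), Flvcr1 (20.6) and Ireb2 (18.5) overlapped each other. With CX3CL1 without B1, Tfrc (62.7) stood above Slc11a2 (60.4), and Slc40a1 and Flvcr1 overlapped at 24.99 and 24.8 RPKM (n = 2). With B1, Slc11a2 (57.7 ± 4.87) stood above Tfrc (52.3 ± 18.0) with overlap, and Fth1 averaged 11579 ± 7424 and Ftl1 1491 ± 968 RPKM (SD, n = 3). With BSA, Fth1 had 7801 ± 42.0 RPKM, Ftl1 1054 ± 92.4, Blvrb 204 ± 10.2 and Slc11a1 196 ± 3.63, the last pair overlapping. Tfrc with 64.0 ± 1.84 and Slc11a2 with 59.5 ± 2.94 overlapped as well, and below them, with no overlap between neighbours, came Ncoa4 with 46.0, Slc40a1 with 31.9, Flvcr1 with 24.8 and Ireb2 with 17.7 RPKM. Several places depend on the length used. Divided by its longest coding transcript, Slc11a2 was above Tfrc in each group, also without B1, and had 84.5 RPKM with BSA where Tfrc had 69.4. Blvrb was then above Slc11a1 with no overlap in any group, and Flvcr1 was above Slc40a1 with CCL26, with overlap (22.9 and 21.9 RPKM), and with CX3CL1 without B1, with no overlap (27.7 and 25.7 RPKM).

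The values that follow are in CPM, counts relative to library size, with library sizes corrected by TMM factors from all 9 libraries. Differences are log2 fold changes from edgeR's quasi-likelihood test with Benjamini-Hochberg adjustment over all tested genes, and "passed" means an adjusted p under 0.05. Both chemokines were set against the same 3 BSA libraries, so those comparisons are not independent of each other.

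Genes of export came out lower with CCL26. Slc40a1 (ferroportin) had 78.3, 73.6 and 69.6 CPM in CCL26 libraries, 56.1 (B1), 86.9 and 86.3 CPM in CX3CL1 libraries and 116, 108 and 108 CPM in BSA libraries. The 3 groups did not overlap without B1: each CCL26 library was under both CX3CL1 libraries, and these were under every BSA library. With B1, the lowest value of all, CCL26 and CX3CL1 overlapped. Flvcr1, the haem exporter, had 96.4, 98.6 and 83.1 CPM with CCL26, 67.7 (B1), 119 and 105 CPM with CX3CL1, and 113, 112 and 109.8 CPM with BSA. CCL26 libraries were thus under all BSA libraries, while the CX3CL1 libraries other than B1 lay on either side of the BSA values.

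Of CCL26 against BSA, with 8 libraries, Slc40a1 fell by 0.58 on the log2 scale (SE 0.0612, adjusted p = 1.20e-07, edgeR), a level 0.669 times that with BSA. Flvcr1 fell by 0.26 (SE 0.0655, adjusted p = 0.00498). The estimates were nearly the same with all 9 libraries, −0.58 and −0.27, but there the spread estimated across the 3 groups included B1. The adjusted p was then 0.416 for Slc40a1 and 0.99996 for Flvcr1 (edgeR), so that neither passed.

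Genes of uptake and transport went in different directions. Tfrc, the receptor for iron-loaded transferrin, had 283, 284 and 267 CPM with CCL26, 167 (B1), 332 and 333 CPM with CX3CL1, and 347, 343 and 328 CPM with BSA. CCL26 values were below all others except B1, and the CX3CL1 libraries other than B1 were within the range of BSA. Slc11a2 (DMT1, which carries ferrous iron) had 423, 442 and 465 CPM with CCL26, 328 (B1), 371 and 387 CPM with CX3CL1, and 390.3, 354 and 376 CPM with BSA. It was the one gene of the 10 with every CCL26 library above every other library. Slc11a1 (NRAMP1), the phagosomal metal transporter, of which C57BL/6 mice are known to carry a loss-of-function allele, had 441, 445 and 449 CPM with CCL26, 511 (B1), 455 and 451 CPM with CX3CL1, and 465, 449 and 453 CPM with BSA. Its groups lay within a few percent of each other apart from B1.

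Against BSA with 8 libraries, Tfrc fell by 0.28 with CCL26 (log2, SE 0.0410, adjusted p = 1.35e-05, edgeR). Slc11a2 was higher by 0.25 (SE 0.0435, adjusted p = 0.00014), the only one of the 10 to pass as higher. Slc11a1 did not pass, at −0.03 with a 95% interval from −0.11 to 0.04.

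The ferritin chains, the highest of the 10 genes per length, were lower with CCL26. Fth1 (heavy chain, which oxidises iron) had 11862, 11717 and 11300.1 CPM with CCL26, 32604 (B1), 11692 and 11909.5 CPM with CX3CL1, and 12666.5, 12657 and 12544 CPM with BSA. Leaving B1 aside, all libraries of both chemokines were below all BSA libraries, and the chemokines overlapped each other. Ftl1 (light chain, which helps form the iron core) had 784, 772 and 736 CPM with CCL26, 2518 (B1), 1015 and 798 CPM with CX3CL1, and 927, 1028 and 1105 CPM with BSA. CCL26 libraries were below all others, and the CX3CL1 libraries differed most among themselves, also without B1. Ncoa4, the receptor that delivers ferritin for breakdown, had 178, 172 and 169.5 CPM with CCL26, 28.9 (B1), 189 and 193 CPM with CX3CL1, and 194, 204 and 200.1 CPM with BSA. Its 3 groups did not overlap, with CCL26 lowest once B1 was left aside.

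With 8 libraries, CCL26 against BSA, Ftl1 fell by 0.41 (log2, SE 0.0598, adjusted p = 1.39e-05), Ncoa4 by 0.20 (SE 0.0457, adjusted p = 0.00214) and Fth1 by 0.12 (SE 0.0181, adjusted p = 4.16e-05, edgeR). The change of Fth1 is the smallest of those that passed, a level 0.923 times that with BSA. Ferritin genes have near-identical copies elsewhere in the genome, and counting could split their reads: the copy Ftl1-ps1, counted apart, had 147 to 398 counts per library. Reads shared with other copies could not be seen, so the size of this uncertainty in the ferritin values is not known.

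The regulator and the haem enzyme did not pass in any comparison. Ireb2 (IRP2, an iron regulatory protein) had 109, 119 and 96.3 CPM with CCL26, 23.9 (B1), 104 and 112 CPM with CX3CL1, and 107, 101 and 103 CPM with BSA. Blvrb had 263, 283 and 299.7 CPM with CCL26, 699 (B1), 278 and 286 CPM with CX3CL1, and 304, 276 and 283 CPM with BSA. Without B1 the groups overlapped in each comparison for both genes. For CCL26 against BSA with 8 libraries, the 95% interval of the log2 difference ran from −0.07 to 0.20 for Ireb2 and from −0.13 to 0.07 for Blvrb.

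**Figure D2:**
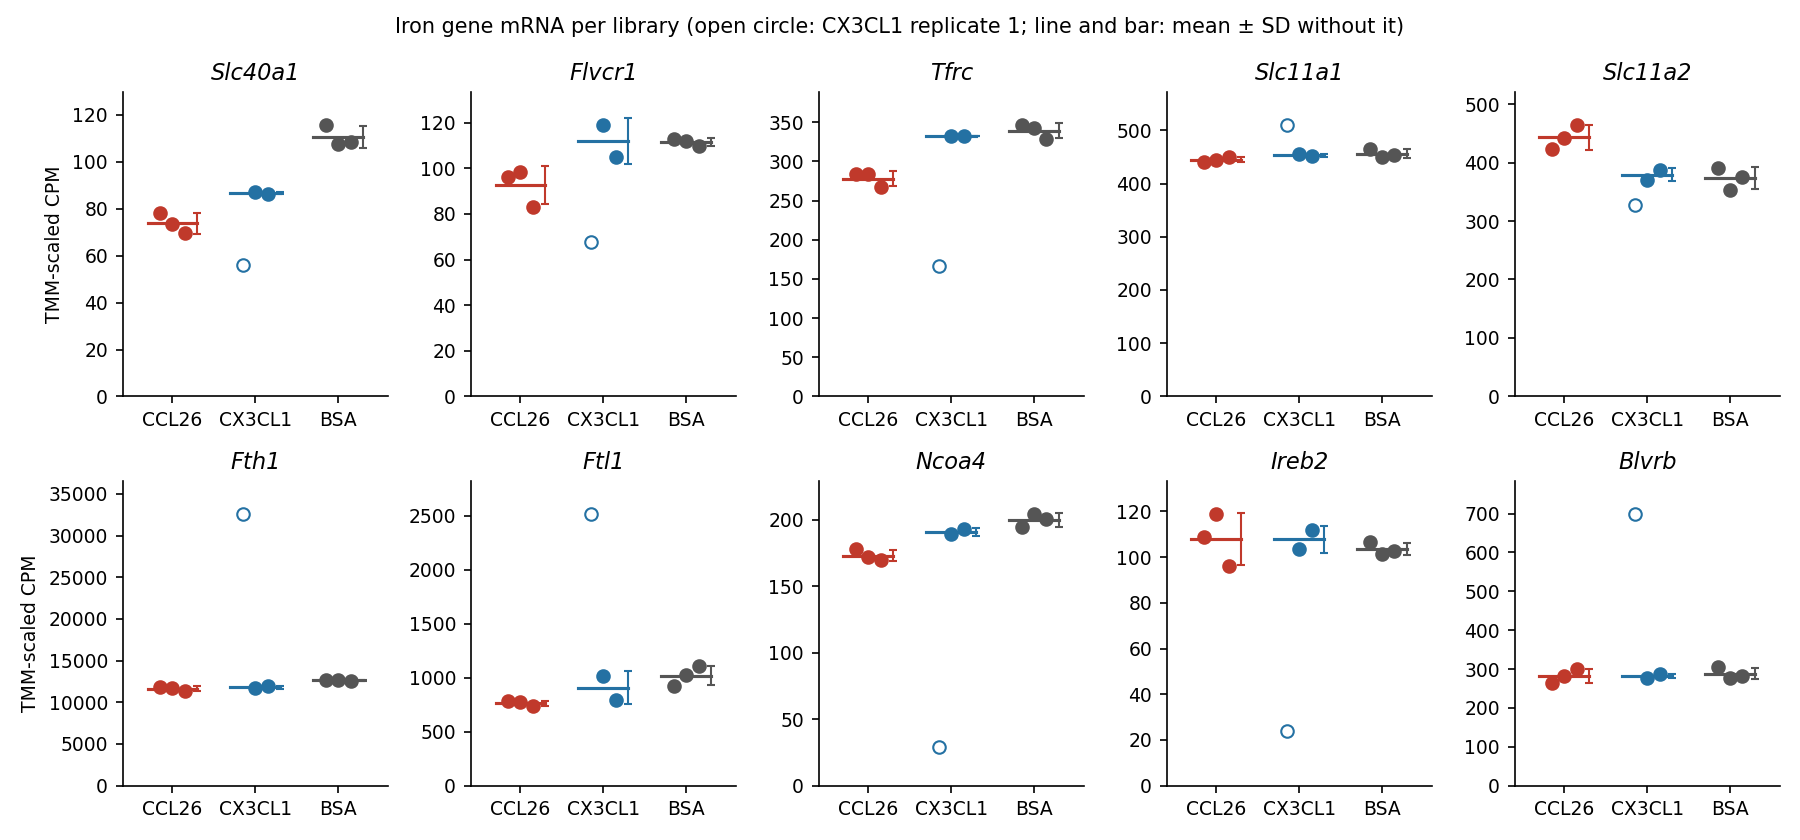
TMM-scaled CPM of each iron gene in every library (points), by treatment; the open circle is CX3CL1 replicate 1 (B1), and the line and bar are the mean and SD without it. For Slc40a1 the groups without B1 are stepped, from 69.6 to 78.3 CPM with CCL26, 86.3 and 86.9 with CX3CL1, and 108 to 116 with BSA.

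Over the 10 genes, CCL26 against BSA with 8 libraries, 6 fell (Slc40a1, Ftl1, Tfrc, Flvcr1, Ncoa4 and Fth1), 1 rose (Slc11a2) and 3 did not pass. Of all 13245 genes tested, 19.0% passed in that comparison, 9.26% as lower and 9.74% as higher. Among genes of at least 50 CPM on average, a group that holds all 10, 37.7% passed. The median log2 difference was −0.16 over the 10 genes and 0.01 over all tested genes. Only Slc40a1 and Ftl1 fell by more than the 0.36 that bounds the lowest 10% of all genes, so most of these changes were small. Groups did not overlap for 8 of the 10, against 32.7% of all genes. With all 9 libraries, 0 of the 10 passed in edgeR's test and 0.434% of 12915 genes did; at an unadjusted p under 0.05, 2 of the 10 passed, Slc40a1 and Slc11a2. A fit of the 6 CCL26 and BSA libraries alone, which no CX3CL1 library enters, called the same 7 genes as that of 8 libraries.

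The 4 genes with a match to the element in a searched transcript, Slc40a1, Fth1, Ftl1 and Tfrc, were among those that fell with CCL26. In that fit of 8 libraries, 9.26% of all tested genes fell, and 37.7% of those of at least 50 CPM on average passed. Of the 6 without a match, Flvcr1 and Ncoa4 fell, Slc11a2 rose and Slc11a1, Ireb2 and Blvrb did not pass. The grouping follows the letters searched: an isoform of Slc11a2 is known to carry an iron-responsive element in its 3′ UTR. Counts are over whole genes, so the rise of Slc11a2 cannot be assigned to an isoform. The groups were not tested against each other. These are levels of mRNA; translation and iron itself were not measured.

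CX3CL1 against BSA gave fewer calls, and the size of the differences depended on B1. With 8 libraries, 2 of the 10 genes passed, both lower: Slc40a1 fell by 0.35 (log2, SE 0.0684, adjusted p = 0.0247, edgeR) and Fth1 by 0.10 (SE 0.0203, adjusted p = 0.0389). Of all genes, 0.332% passed, 0.310% as lower and 0.0227% as higher. Among genes of at least 50 CPM, 0.906% passed. Groups did not overlap for 3 of the 10, Slc40a1, Fth1 and Ncoa4, against 25.8% of all genes. Both calls were lost when any of the 3 BSA replicates was left out, with the adjusted p of Slc40a1 then between 0.0647 and 0.191 (edgeR). Leaving out CX3CL1 replicate 2 or 3 leaves 1 library in that group, so only the difference is given there. The log2 difference of Slc40a1 stayed between −0.37 and −0.32 over all fits that left out 1 library. DESeq2 called only Slc40a1.

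For the 8 genes that did not pass, the log2 difference of CX3CL1 against BSA with 8 libraries was smallest in size for Flvcr1, at 0.00 with a 95% interval from −0.15 to 0.15. It was largest for Ftl1, at −0.17 with an interval from −0.31 to −0.03. The interval of Tfrc, from −0.12 to 0.07, and that of Slc11a2, from −0.08 to 0.12, include 0. With all 9 libraries, 0 of the 10 passed, as did 0 of all genes by edgeR, where 405 genes had an unadjusted p under 0.05 and, of the 10, Slc40a1 alone. The differences then ran from −0.54 for Ncoa4 to 0.57 for Fth1. Of Fth1 the mean with CX3CL1 was 18735 CPM with B1 and 11801 CPM without it, against 12623 CPM with BSA, so the direction of its difference turned with that library. The same held for Ftl1, with 1444 CPM with B1 and 907 CPM without, against 1019.9 CPM with BSA, and for Blvrb, with 421 and 282 CPM against 288 CPM. The sign also turned for Ireb2, at −0.37 with B1 and 0.06 without it, Flvcr1, at −0.20 and 0.00, Slc11a1, at 0.05 and −0.01, and Slc11a2, at −0.04 and 0.02, so that 7 of the 10 genes turned. For Ncoa4 the CX3CL1 mean was 137 CPM with B1 and 191 CPM without it, against 199.6 CPM with BSA.

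Set directly against each other with 8 libraries, CCL26 and CX3CL1 differed in 5 of the 10 genes, against 10.1% of all genes tested (5.47% higher, 4.64% lower) and 21.2% of those of at least 50 CPM. Groups did not overlap for 7 of the 10, against 36.8% of all genes. With CCL26, Tfrc was lower by −0.26 (log2, SE 0.0455, adjusted p = 0.000377), Flvcr1 by −0.27 (adjusted p = 0.0173), Ftl1 by −0.24 (adjusted p = 0.0177) and Slc40a1 by −0.23 (adjusted p = 0.0337), all from edgeR. Slc11a2 was higher by 0.23 (SE 0.0488, adjusted p = 0.0025). Fth1 did not pass, at −0.02 with a 95% interval from −0.06 to 0.02, and neither did Ncoa4, at −0.14 with an interval from −0.24 to −0.03. In fits that left out 1 BSA or CCL26 library, Tfrc, Flvcr1, Ftl1 and Slc11a2 passed each time, and Slc40a1 was lost without CCL26 replicate 2 or 3. Leaving out CX3CL1 replicate 2 or 3 leaves 1 library in that group, so only differences are given there. Without CX3CL1 replicate 2 the difference was −0.06 for Ftl1, −0.17 for Flvcr1, −0.22 for Slc40a1 and 0.20 for Slc11a2. That of Tfrc stayed between −0.27 and −0.23 over all fits that left out a further library. With all 9 libraries 0 of the 10 passed, against 0.410% of all genes, and 2 had an unadjusted p under 0.05. The differences themselves moved as well: Tfrc was then at 0.00, Flvcr1 at −0.07, Slc40a1 at −0.05, Ftl1 at −0.92 and Slc11a2 at 0.29.

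**Figure D3:**
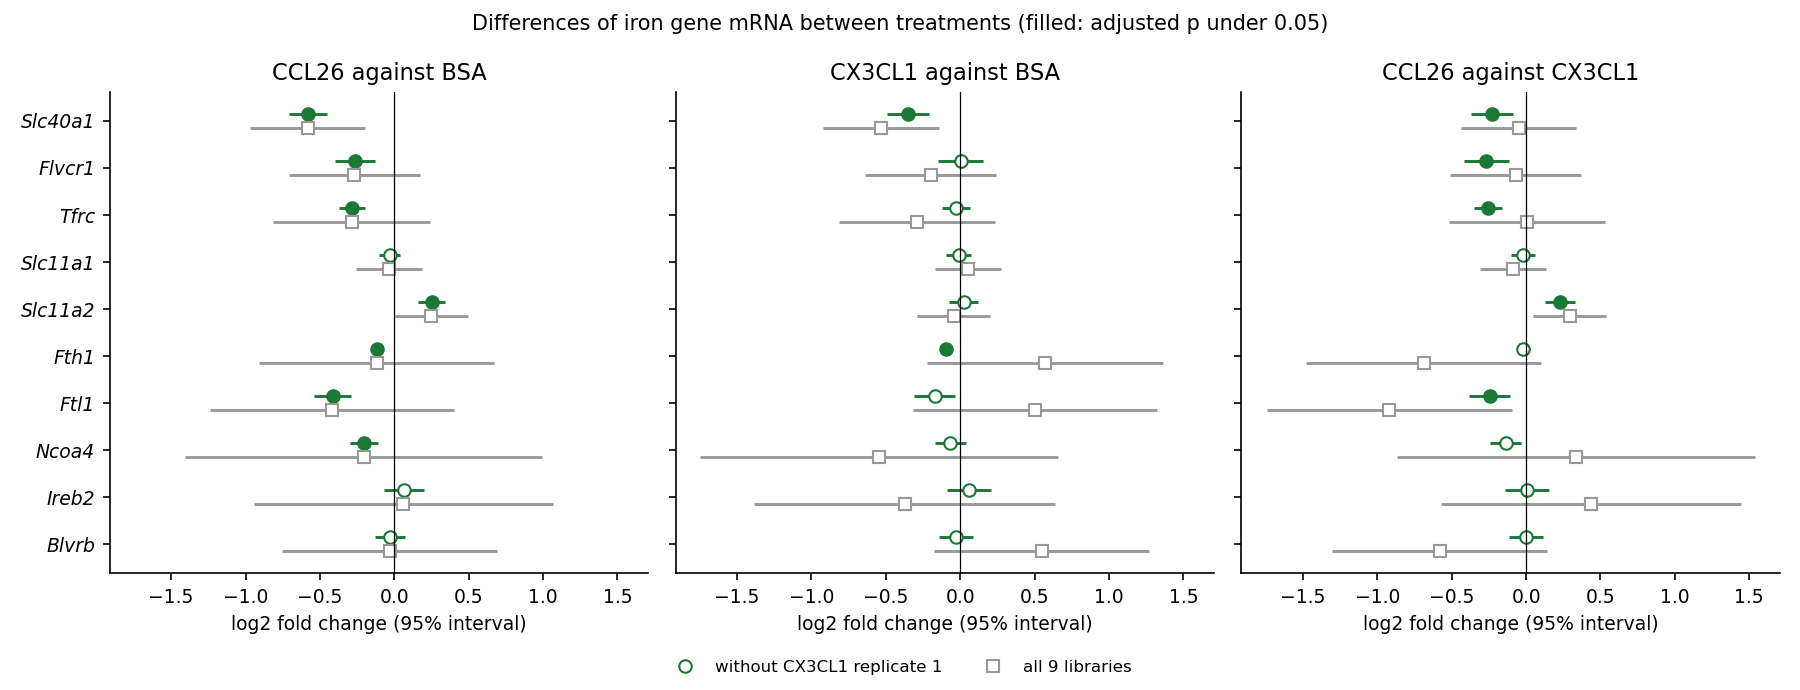
Log2 fold changes of the iron genes with 95% intervals in each comparison, without CX3CL1 replicate 1 (green circles, filled where the adjusted p was under 0.05) and with all 9 libraries (grey squares). The estimates of CCL26 against BSA hardly move between the fits while their intervals widen; with CX3CL1, Fth1 lies at −0.10 without B1 and at 0.57 with it.

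Other genes of iron and haem handling were taken as 5 lists of 98 genes, of which 83 were in the table and 82 were tested. For CCL26 against BSA with 8 libraries, 1 of them rose, 13 fell and 68 did not pass, where 9.74% of all tested genes rose, 9.26% fell and 19.0% passed in all, so the count is near the share of all genes. In that comparison, their median log2 difference was −0.04, against 0.01 over all tested genes. Without BSA replicate 1 or 2, 8 genes passed. The calls came from 3 lists, and 37.7% of tested genes of at least 50 CPM on average passed. Of 17 genes of uptake, reduction and iron chaperones, 6 fell, among them Trf (transferrin; 82.6 ± 2.95 CPM with CCL26 and 101 ± 2.91 CPM with BSA, SD, n = 3 each), Snx3 (a sorting nexin that recycles the transferrin receptor; 199.99 ± 4.13 and 239 ± 4.87 CPM) and Pcbp2 (an iron chaperone; 267 ± 9.60 and 306 ± 3.52 CPM).

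Of 17 genes of haem uptake and breakdown and their control, 6 fell and 1 rose (Lrp1, a receptor for haem bound to haemopexin, log2 0.11, adjusted p = 0.0293, edgeR). Of all tested genes, 9.26% fell and 9.74% rose, and 37.7% of those of at least 50 CPM on average passed. Hmox1, which opens the haem ring and frees its iron, had 1017 ± 14.9 CPM with CCL26 and 1328 ± 39.1 CPM with BSA (SD, n = 3 each). It fell by 0.38 on the log2 scale (adjusted p = 7.67e-10). Por, which passes electrons to the enzyme Hmox1 encodes, fell by 0.22 (adjusted p = 4.82e-05), and Bach1, a haem-sensing repressor of Hmox1, fell by 0.16 (adjusted p = 0.00593). Of 7 regulators, Epas1, which encodes a hypoxia-inducible factor, fell by 0.81 (adjusted p = 0.00483, edgeR) at a low level, 3.84 ± 0.236 CPM with CCL26 against 6.73 ± 0.342 CPM with BSA. None of 13 genes of haem synthesis and none of 28 genes of mitochondrial iron and iron-sulphur clusters passed in edgeR's test. The smallest adjusted p was 0.0652 for Tmem14c in the first list and 0.0573 for Slc25a37 (mitoferrin) in the second. Most genes of both lists were under 50 CPM with CCL26 and with BSA. The share that passed was 19.0% over all tested genes, against the 37.7% at 50 CPM or more. The lists were not tested against each other.

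For CX3CL1 against BSA, 0 of the 82 genes passed with 8 libraries, where 0.332% of all tested genes did. CCL26 against CX3CL1 gave 2 higher, Mcoln1 and Ciao2b, and 5 lower, Slc39a8, Pcbp2, Snx3, Hmox1 and Por, a count near the 10.1% of all tested genes that passed. These 7 calls became 3 without CCL26 replicate 1 and 4 without BSA replicate 2. Leaving out CX3CL1 replicate 2 or 3 leaves 1 library in that group, so no count is given there. Hmox1 had 1017 CPM with CCL26, against 1210.3 and 1192 CPM in the CX3CL1 libraries other than B1 and 1354 CPM in B1. Its log2 difference between the chemokines was −0.24 (adjusted p = 1.76e-05, edgeR, 8 libraries). With all 9 libraries, 0 of the 82 passed in any comparison. Of all tested genes, 0.434% passed for CCL26 against BSA, 0 for CX3CL1 against BSA and 0.410% for CCL26 against CX3CL1.

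**Figure D4:**
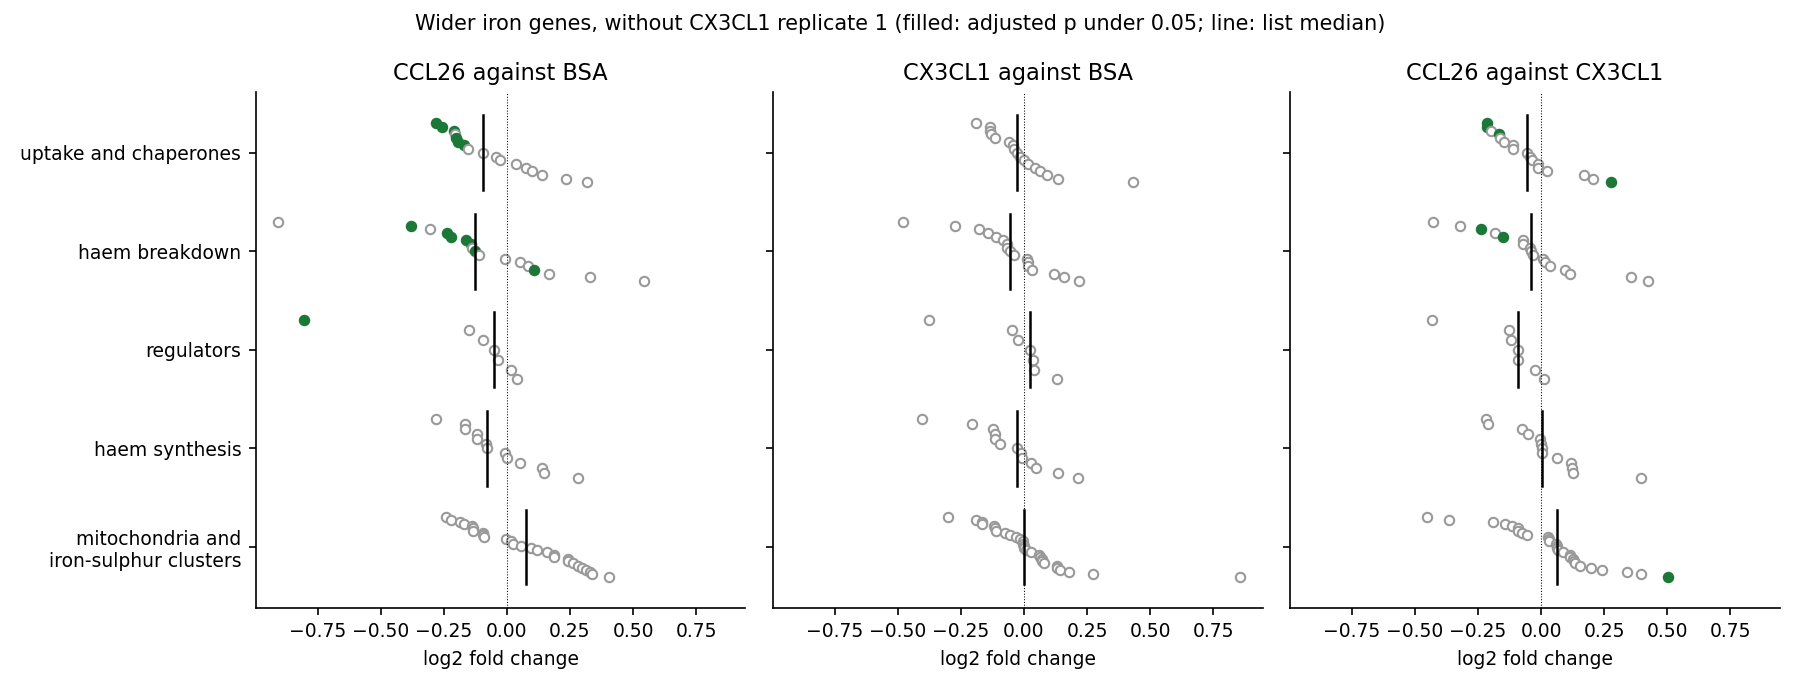
Log2 fold changes of the 82 other iron and haem genes (points, filled where the adjusted p was under 0.05) by list in each comparison, without CX3CL1 replicate 1; lines are list medians. For CCL26 against BSA the filled points lie in the lists of uptake, haem breakdown and regulators, and all but Lrp1 are lower.

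All 8 macrophage markers were found, and they moved with treatment as well. Their summed level was 23280 to 23839 CPM with CCL26, 27169 to 41029 CPM with CX3CL1 (41029 CPM in B1) and 28914 to 29447 CPM with BSA, most of it Lyz2. Of the 8, 5 fell with CCL26 against BSA in the fit of 8 libraries, Adgre1, Cd68, Itgam, Fcgr1 and Lyz2, and the other 3 did not pass; of all tested genes, 9.26% fell. Granulocyte markers, 9 of 10 of them listed, summed to 79.4 to 84.3 CPM with CCL26, 70.3 to 183 CPM with CX3CL1 (183 CPM in B1) and 64.8 to 70.3 CPM with BSA; S100a8 and S100a9 passed as higher with CCL26. The part of either list in the iron results was not tested. None of 11 erythroid markers, globin genes among them, was listed, which does not show that they had no reads. Of 4 mast cell markers Kit alone was listed, at 2.55 to 3.36 CPM with CCL26, 0 (B1), 1.22 and 1.52 CPM with CX3CL1 and 1.07 to 1.69 CPM with BSA. The summed levels of dendritic, lymphoid and stromal markers were at most 10.2, 1.69 and 2.24 CPM in any library.

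The genes whose log2 CPM followed Slc40a1 most closely over the 8 libraries without B1, among 8068 genes of at least 10 CPM, were Hspa5, an endoplasmic reticulum chaperone (Pearson's r = 0.993), Rpl6, a ribosomal protein (0.987), Gm12346 (0.984) and Hipk1, a nuclear kinase (0.984). For Tfrc they were Degs1, an enzyme of ceramide synthesis (0.994), Plcg2 (0.991), Gcnt1 (0.988) and Rbbp6 (0.988). These values describe 8 libraries that fall into 3 treatment groups and share their preparation.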

How the data were processed

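The authors deposited 1 table with raw counts of reads for 13593 genes. Its name calls the counts filtered, so a gene that is not listed may still have had reads. STAR, featureCounts and MultiQC are the tools in the submitters' processing notes, and GRCm38 and mm10 the builds. No source used here says whether strand was used in counting, so reads of overlapping or antisense genes cannot be told apart. Columns were matched to libraries by the code in the labels, and 0 value columns were left unmatched. Gene models, lengths and sequences come from GENCODE M21 (GRCm38).

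Counts were filtered with filterByExpr by group, scaled by TMM and tested with edgeR 4.0.16 (R 4.3.3) in 1 fit over the 3 groups, with 9 libraries (12915 genes) and with 8 (13245 genes), Benjamini-Hochberg adjustment and a threshold of 0.05. Alternatives used DESeq2 1.42.0, limma-voom (limma 3.58.1), scaling by upper quartile or by DESeq2 size factors, all genes unfiltered, only genes of at least 5 CPM in 3 libraries, the 2 groups of a comparison alone, a replicate block, and each library left out. Scripts were tested on simulated data. Figures were drawn with matplotlib 3.10.9.

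Members and gene lists were chosen with earlier results of these data known. Named are all 10 members, up to 4 genes of smallest p from each wider list, the highest marker of each marker list and the 4 most similar genes; Lrp1, Mcoln1, Slc39a8 and the macrophage and granulocyte markers that passed were named after their values were seen. Total counts per library ran from 16923982 to 23198324, and standard errors rest on the spread between libraries.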

Additional observations from a re-analysis of the deposited data

How the results depend on the processing

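The 7 calls for CCL26 against BSA with 8 libraries held, for the same genes, in every alternative run. Leaving out single libraries gave 1906 to 2734 of all genes there (2517 with 8) and 8 to 16 of the wider iron genes (14 with 8).

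With all 9 libraries, CCL26 against BSA called 56 genes in all and none of the 10 or of the wider genes. The 2 groups alone gave 2417 of all genes, 13 wider genes and 7 of the 10, DESeq2 gave 248 genes with 1 wider gene, and single libraries left out gave 9 to 2517, 0 to 14 and 0 to 7. CCL26 against CX3CL1 called 53 genes; DESeq2 gave 253 with 1 wider gene, the 2 groups alone 4, and single libraries left out 10 to 1338 of all genes, 0 to 7 wider genes and 0 to 5 of the 10. CX3CL1 against BSA called 0 genes, and leaving out single libraries gave 0 to 44 of all genes and 0 to 2 of the 10. In each case the upper end is the fit without B1.

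With 8 libraries, CX3CL1 against BSA called 44 genes, none wider. DESeq2 gave 95 genes, 2 wider genes and 1 of the 10. The 2 groups alone gave 160 and 2 wider genes, and limma-voom and upper quartile scaling 1 wider gene each. Single BSA or CCL26 libraries left out gave 3 to 187 of all genes, 0 to 2 wider genes and 0 to 2 of the 10. Leaving out CX3CL1 replicate 2 or 3 leaves 1 library in that group, so no counts of comparisons with CX3CL1 are given for those fits. CCL26 against CX3CL1 called 1338 genes and 7 wider genes; the 2 groups alone gave 3 wider genes, and single libraries left out gave 620 (without CX3CL1 replicate 2) to 1720, 2 to 7 and, of the 10, 1 to 5. Slc40a1 was lost there in the 2 groups alone (adjusted p = 0.0738, edgeR), and DESeq2 called Ncoa4 in place of Ftl1.

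Replicate numbers are shared by the groups, and no source used here says whether they pair the libraries. Over 9 same-numbered pairs, deviations from group means, with B1 included, had correlations of −0.107 to 0.0796, 0 of them over 0.1. B1 weighs on the deviations of every CX3CL1 library, so pairs with that group cannot decide the question. Same-numbered BSA and CCL26 libraries had correlations of 0.0066, 0.0391 and 0.0123. A replicate block gave 14 genes for CCL26 against BSA and 11 for CCL26 against CX3CL1 with 9 libraries. With 8 it gave 16 genes and 0 of the 10 for CX3CL1 against BSA, and 4 wider genes and 4 of the 10 for CCL26 against CX3CL1, where Ftl1 was not called (adjusted p = 0.0505, edgeR).

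Of the differences that changed sign, none was called with both signs. For CCL26 against CX3CL1 with 9 libraries, Tfrc was at −0.0061 with DESeq2 size factors, −0.0061 with the DESeq2 test, −0.034 with upper quartile scaling and −0.010 with the 5 CPM filter. With 8 libraries, CX3CL1 against BSA, Flvcr1 was at −0.0058 with upper quartile scaling and −0.0082 with limma-voom. For CCL26 against CX3CL1 with 8, Ireb2 was at −0.015 with upper quartile scaling and −0.011 with the replicate block, and Blvrb at 8.5e-05 with the 5 CPM filter, 0.0036 with the block and 0.0018 in the 2 groups alone.

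Over fits that each left out 1 library, CCL26 against BSA with 9 ranged from −0.013 to 0.14 for Ireb2 and −0.077 to 0.018 for Blvrb, and with 8 from −0.0080 to 0.14 and −0.075 to 0.021. CX3CL1 against BSA with 9 ranged from −0.37 to 0.0031 for Flvcr1, −0.0099 to 0.081 for Slc11a1, −0.096 to 0.022 for Slc11a2, −0.097 to 0.81 for Fth1, −0.17 to 0.79 for Ftl1, −0.70 to 0.059 for Ireb2 and −0.028 to 0.77 for Blvrb. With 8 it ranged from −0.090 to 0.095 for Flvcr1, −0.019 to 0.0055 for Slc11a1, −0.014 to 0.056 for Slc11a2 and −0.055 to 0.014 for Blvrb. CCL26 against CX3CL1 with 9 ranged from −0.23 to 0.054 for Slc40a1, −0.27 to 0.11 for Flvcr1, −0.26 to 0.16 for Tfrc and −0.14 to 0.67 for Ncoa4, and with 8 from −0.033 to 0.00027 for Fth1, −0.067 to 0.079 for Ireb2 and −0.048 to 0.048 for Blvrb. The cause was not tested. Depth was not varied.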

Other observations

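Ratios of 2 genes' counts within a library do not depend on its scaling. Slc11a2 over Slc40a1 was 5.40, 6.00 and 6.68 in CCL26 libraries, 5.84 (B1), 4.27 and 4.48 in CX3CL1 libraries, and 3.37, 3.28 and 3.47 in BSA libraries. The 3 groups did not overlap without B1, so the importer of the endosome stood higher relative to the exporter of the cell surface in every CCL26 library than in any BSA library. Fth1 over Ftl1 was 15.1, 15.2 and 15.4 with CCL26, 12.9 (B1), 11.5 and 14.9 with CX3CL1, and 13.7, 12.3 and 11.4 with BSA. The CCL26 libraries lay above all others and closer together than those of either other group. Slc40a1 over Tfrc was 0.276, 0.259 and 0.261 with CCL26, 0.337 (B1), 0.262 and 0.259 with CX3CL1, and 0.334, 0.314 and 0.330 with BSA. B1 was just above the BSA libraries, and the other chemokine libraries were below them. In B1, Slc40a1 (3370 bases) was at 0.618 times and Tfrc (4890 bases) at 0.530 times its mean in the other 8 libraries. The B1 ratios may carry its trend with transcript length, which was not tested. These ratios were chosen after the values were seen and were not tested.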
